A study of Mus musculus with 2 samples.

Results

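The genes described here are those whose promoter carried a peak of open chromatin in the ATAC-seq list labelled *Bmi1* KO and none in the list labelled WT. A protein-coding gene on chromosomes 1 to 19 was a member if the centre of a KO-labelled peak lay within 1 kb of one of its transcription start sites (TSSs) and no base of a WT-labelled peak lay within 3 kb of any of them. This rule was met by 2358 of 20807 tested genes, which is 11.3% of them, and by 18.2% of the 12990 genes with a KO-labelled promoter peak. The mirrored rule, a WT-labelled promoter peak with no KO-labelled peak nearby, was met by 734 genes (3.53% of those tested). The ratio of both counts, 3.21, was 2.05 when equal numbers of peaks were taken and 59.7 when only peaks with a −log10 q of 5 or more could open a promoter. Genes with a KO-labelled promoter peak and a WT-labelled peak within 3 kb are called open in both lists, and there were 10632 of them. The remaining 7083 genes fell in none of these sets. The member genes held 2797 KO-labelled peaks, of which 2747 were narrower than 1000 bp and are called member regions. Members were chosen by the peak calls themselves, so their counts and peak heights describe the choice and were not tested.

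The study compared the organ of Corti of WT mice with that of *Bmi1* KO (*Bmi1*-/-) littermates at postnatal day 2. The mutant allele was *Bmi1* tm1Brn, from the strain FVB.129P2-Bmi1 tm1Brn/MvlJ, crossed back 10 to 12 times to C57BL/6J. There was 1 ATAC-seq library per genotype, each made from 20 cochleae of 10 pooled mice, so no difference between the lists has a replicate behind it. The allele is present in every cell of the animal, and the dissected tissue is a mixture of cell types.

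*Bmi1* (Pcgf4) is a core subunit of Polycomb repressive complex 1, which ubiquitylates histone H2A and keeps developmental genes silent together with the H3K27me3 mark of Polycomb repressive complex 2. In the inner ear *Bmi1* is known for its role in hair cell survival and progenitor proliferation. ATAC-seq marks DNA that the transposase Tn5 can reach, and active promoters, above all those in CpG islands, are the most regular sites of such access.

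The names inside the peak lists go against their labels. In the WT-labelled list each peak is named with the prefix bko, and in the KO-labelled list each has the prefix bwt. The study describes more accessible sites in the mutant, which is the direction of the longer KO-labelled list, but this rests on ATAC-seq of the same pools and is no separate check. In other libraries of these genotypes the study reports mostly raised expression and mostly reduced H3K27me3 in the mutant. A longer KO-labelled list runs the same way, but those libraries do not show which peak list is which. No other label settles the matter, so the lists are called by GEO's labels throughout, and each direction given below rests on those labels. The targeted gene does not settle it either. *Bmi1* had 4 KO-labelled promoter peaks, the one with the highest −log10 q at chr2:18677013-18677568 with a fold enrichment of 2.84, and 1 WT-labelled promoter peak at chr2:18677082-18677406 with a fold enrichment of 2.46. It was thus open in both lists, which checks neither label, since an open promoter does not tell whether the coding sequence is intact.

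The lists differed in size and depth, and they give no read totals. The KO-labelled list held 100668 peaks and the WT-labelled list 77826. Fold enrichment is the number of fragments piled up at the summit over the local background, each with 1 added. From it and the Poisson p, the commonest local background was 8.04 in the KO-labelled library and 6.32 in the WT-labelled library, a ratio of 1.27. At that background the lowest pileup that reached a list was 15 in the KO-labelled library and 13 in the WT-labelled library. When the pileup and background of each member region were divided by that ratio, 2740 of 2747 (99.7%, exact 95% interval 99.5 to 99.9%) still had a −log10 p of at least 2, the level down to which both lists reach. Among regions open in both lists it was 13647 of 13663 (99.9%, 99.8 to 99.9%). The median −log10 p of member regions was 4.47 before the division, so this step could remove few of them. Whether depth had a part in the choice of members was not tested. All intervals given for shares are exact binomial 95% intervals and cover counting error only.

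Member regions were weak peaks. Their median fold enrichment was 2.36 (range 1.68 to 4.53), their median pileup 23 fragments and their median −log10 q 1.67. The regions of genes open in both lists had a median fold enrichment of 2.45 and a median −log10 q of 2.18, and they reached a −log10 q of 92.1. A −log10 q of at least 1.3 was reached by 70.9% of member regions (69.2 to 72.6%) and by 78.2% (77.5 to 78.9%) of the regions open in both lists. The share of members fell with the strength of the promoter peak. Among genes whose strongest KO-labelled promoter peak had a −log10 q below 1.3, 537 of 1453 were members (37.0%, 34.5 to 39.5%). Between 1.3 and 3 it was 1186 of 4571 (25.9%, 24.7 to 27.2%), between 3 and 5 it was 456 of 3270 (13.9%, 12.8 to 15.2%), and between 5 and 10 it was 169 of 2761 (6.12%, 5.26 to 7.08%). At 10 or more, 10 of 935 genes were members (1.07%, 0.514 to 1.96%). Because pileups are whole numbers over a common background, many member peaks have exactly the same value. A pileup of 37 at a background of 8.04, for example, gave Eif3m, Tdrkh, Rab8b and Grk5 the same fold enrichment of 4.20 and −log10 q of 9.49.

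The 20 members with the highest −log10 q of a region lay at 18 distinct regions, and 18 of the 20 had a CpG-rich promoter. Snapc3, a subunit of the complex that starts transcription of small nuclear RNA genes, ranked first, with a region at chr4:83417211-83418117 that had a pileup of 40, a fold enrichment of 4.53 (−log10 q 11.4). Tfb2m, a transcription factor of mitochondrial DNA, and Cnst, which encodes the connexin-binding protein consortin, start on opposite strands of the region at chr1:179546145-179546993 (fold enrichment 4.40, −log10 q 11.3). Nfyb encodes a subunit of the CCAAT-binding factor NF-Y, and its region at chr10:82763552-82764340 had a fold enrichment of 3.88 (−log10 q 10.9). Tia1, an RNA-binding protein of stress granules, had a −log10 q of 10.4 at chr6:86404018-86404762. Eif3m, a subunit of the translation initiation factor eIF3, shared chr2:105016635-105017363 with the divergent gene Ccdc73, at a −log10 q of 9.49. Dcp1a, which takes part in mRNA decapping, reached 8.88. No WT-labelled peak lay within 3 kb of these genes by the rule, and for the 20 together the nearest one was between 3322 and 22821 bp from a TSS.

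Among the others of the 20, Rala, a Ras-like GTPase of exocytosis, had a region at chr13:17943778-17944707 with a −log10 q of 10.1. Rab8b, a GTPase of vesicle transport, had a pileup of 37 at chr9:66919351-66919958, and its nearest WT-labelled peak was 22089 bp away. Grk5, a kinase that desensitises G protein-coupled receptors, had the same pileup at chr19:60889721-60890510. Saraf, a regulator of store-operated calcium entry, had a −log10 q of 8.55, and Ecsit, an adaptor of Toll-like receptor signalling, 8.50. Ppara, the fatty acid-sensing nuclear receptor, had a −log10 q of 8.47 at chr15:85735010-85735896. Tdrkh, a Tudor domain protein of the germline piRNA pathway, had 9.49 at chr3:94412706-94413585, and Myzap, a protein of cell junctions in the heart, 8.53. The others were BC031181 (9.75), the clone-named gene Gm28043 (9.20), and the coiled-coil genes Ccdc90b (9.19) and Ccdc89 (8.56). The promoters of Ccdc89 and Myzap were the 2 of the 20 that were not CpG-rich.

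Of the member peaks, 50 were at least 1000 bp wide and are not among the regions, and 52 member genes had wide peaks only. The strongest peak of any member was of this kind. It lay at chr11:51262675-51263808, 1134 bp wide, at the promoter of Clk4, a kinase of splicing factors, with a fold enrichment of 5.21 (−log10 q 17.8). It was followed by 9430038I01Rik with a −log10 q of 13.8, Slk, a kinase of the Ste20 family, with 10.1, and Wrn, the RecQ helicase lost in Werner syndrome, with 8.92. Except for Slk, these genes were chosen after their values were seen.

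The tested genes were sorted into 51 lists of families and functions, and the members in each list were counted beside the share over all tested genes. At least 1 of the family lists held 1008 members (42.7%, 40.7 to 44.8%), against 9460 of 20807 tested genes (45.5%). As a share of the genes with a KO-labelled promoter peak, where members make up 18.2%, 31 lists had an interval that included this share, 14 lay above it and 6 below. The median −log10 q over all genes with a KO-labelled promoter peak was 3.13. Among the lists above, the Zfp genes had that same median at the digits given, and the other lists above had lower medians. Among the lists below, the kinases and phosphatases also had 3.13. How far the share in a list follows from peak strength was not tested.

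Among the 51 lists, the histone genes had the highest share of members among their tested genes under the main rule. Of 79 histone genes 21 were members (26.6%, 17.3 to 37.7%), 21 were open in both lists and 2 met the mirrored rule. With a −log10 q of 1.3 or more asked of both lists, 17 of the 79 histone genes were members. Ligand-gated channels were then higher, with 20 of 62, so this rank depended on the threshold. The replication-dependent histone genes lie in clusters, and their messages are made in S phase. Hist1h3c and Hist1h2bb, a divergent pair for histones H3 and H2B, shared the region chr13:23746279-23746726 with a fold enrichment of 3.76 (−log10 q 7.12). Hist1h4h, a histone H4 gene, had a −log10 q of 4.12, the linker histone gene Hist1h1c 3.56 and the H2B gene Hist1h2bk 3.13. On chromosome 3, the region chr3:96220415-96220905 served 4 members at once, Bola1, Hist2h2ab, Hist2h2ac and Hist2h2be, with a −log10 q of 1.08. Histone genes have near-identical copies, and how reads were placed among copies is not given in the sources used here.

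Zinc finger proteins of the Zfp type, many of which carry a KRAB domain and silence retroelements, had the most members of any list except the predicted or clone names. Of 417 such genes 80 were members (19.2%, 15.5 to 23.3%), 205 were open in both lists and 14 met the mirrored rule. As a share of those with a KO-labelled promoter peak this was 28.1% (22.9 to 33.7%). Zfp809, which silences retroviral DNA in embryonic cells, led the list with a fold enrichment of 3.76 (−log10 q 7.12) at chr9:22225585-22226182. Zfp786 and Zfp719 followed with −log10 q values of 7.08 and 7.01, and Zfp382 and Zfp346 had 6.02 each. The longest row of neighbouring members was in a cluster of these genes. Gm28041, Zfp456, Zfp429, Zfp459 and Zfp874a, which follow each other at chr13:67345246-67451624, were all members through 4 peaks, whose −log10 q values ran from 1.08 for Zfp874a to 3.13 for Zfp459. Of 40 BTB zinc finger genes 1 was a member (2.50%, 0.0633 to 13.2%), Zbtb43, with a −log10 q of 2.17, and 36 of them were open in both lists. With a −log10 q of 1.3 or more asked of both lists, 7 of the 40 were members.

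Among regulators of development, 26 of 155 homeobox genes were members (16.8%, 11.3 to 23.6%), and 20 of the 26 had a CpG-rich promoter. As a share of the 100 with a KO-labelled promoter peak this was 26.0% (17.7 to 35.7%), an interval that includes the background. Isl2, a LIM-homeobox gene of motor and sensory neurons, had a region at chr9:55540867-55541203 with a fold enrichment of 3.32 (−log10 q 7.13), and its nearest WT-labelled peak began 3058 bp from a TSS, just outside the limit. Six5 had a −log10 q of 5.18. Hoxb3 and Pou4f1, a POU gene of sensory neurons, had 3.13 each, and Tlx3 had 3.08. Of 59 basic helix-loop-helix genes 10 were members by symbol (16.9%, 8.44 to 29.0%), among them Tcf7, an HMG-box factor chosen after its value was seen. Neurog1, which specifies the neurons of the cochlear ganglion, had a fold enrichment of 2.90 (−log10 q 3.34) at chr13:56251736-56252251, with the nearest WT-labelled peak 20401 bp away. Myf6 (1.97), Ptf1a (1.81), Tal2 and Ascl4 (1.65 each) were weaker. Of the forkhead, Sox, T-box and GATA genes 8 of 77 were members (10.4%, 4.59 to 19.5%), led by Tbx18 with 4.30, followed by Foxd2 with 2.68 and Sox15 with 1.95. Of 40 nuclear receptor genes 4 were members, with Esr2 at 2.71, Rarg at 2.13 and Rarb at 1.08 behind Ppara.

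Signalling ligands and receptors were near the background. Of 63 Wnt, Notch and hedgehog genes 10 were members (15.9%, 7.88 to 27.3%), with a median −log10 q of 1.09. Only 3 of them were left when KO-labelled peaks had to reach 1.3 on that scale. The inhibitor Sfrp5 had 2.09, Wnt5a 1.87, the Wnt agonist Rspo2 1.65 and Wnt4 1.26. Of 85 FGF, TGF-beta and BMP genes 8 were members (9.41%, 4.15 to 17.7%). Tgfb1 had a −log10 q of 3.92, the activin subunit gene Inhba 2.96, Fgf14 2.71 and Fgf4 1.35. Of 67 axon guidance genes 6 were members and none met the mirrored rule. Sema3c, a secreted semaphorin, had a −log10 q of 5.49 with the nearest WT-labelled peak 148549 bp away, and Epha6 and Efnb3 had 3.13 each.

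Ion channels were counted in 4 lists. Of 62 genes of ligand-gated channels 15 were members (24.2%, 14.2 to 36.7%), 22 were open in both lists and 6 met the mirrored rule. The NMDA receptor gene Grin2b had a fold enrichment of 3.05 (−log10 q 4.05) at chr6:136172019-136172549. The GABA receptor gene Gabrd and the AMPA receptor gene Gria4 had 3.56 each, the kainate receptor gene Grik4 had 3.13 and the serotonin receptor gene Htr3a 2.99. Of 92 potassium channel genes 19 were members (20.7%, 12.9 to 30.4%), led by Kcnh8 at chr17:52602162-52602820 with a −log10 q of 4.98, then Kcnj3 and Kcnrg at 2.33 each and Kcnd2 at 1.97. Of the sodium, calcium and other cation channels 11 of 90 were members (12.2%, 6.26 to 20.8%). Orai1, the pore of store-operated calcium channels, had a fold enrichment of 3.52 (−log10 q 7.88). The pacemaker channel gene Hcn4 had 3.16, and the osmosensitive channel gene Trpv4 had 3.04. Of 49 genes of claudins, connexins and other junction proteins 10 were members (20.4%, 10.2 to 34.3%). The connexin genes Gja5 (3.56), Gja3 (3.29), Gja1 (2.68) and Gja4 (2.44) were among them, with the claudin gene Cldn23 at 3.08.

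Transporters and matrix genes lay near the shares over all tested genes. Of 372 solute carriers 45 were members (12.1%, 8.96 to 15.8%), led by Slc37a4, the glucose-6-phosphate transporter of the endoplasmic reticulum, with a −log10 q of 8.13, and Slc16a10, an aromatic amino acid transporter, with 5.49. The zinc transporter gene Slc39a1 had 5.45. Of 136 genes of extracellular matrix, its proteases and integrins 17 were members (12.5%, 7.45 to 19.3%). Fbln1 (4.12), Mmp24 (4.02), Itga4 and Mmp16 (3.13 each) and Mmp2 (2.92) led them. Other G protein-coupled receptors counted 29 of 218 (13.3%, 9.09 to 18.5%), with the glutamate receptor gene Grm3 at a −log10 q of 5.49, the substance P receptor gene Tacr1 at 3.13 and Adgrg6, needed for myelination by Schwann cells, at 2.71.

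Mitochondrial and ribosomal genes are expressed in most tissues. Of 104 genes of the respiratory chain and ATP synthase 22 were members (21.2%, 13.8 to 30.3%), 64 were open in both lists and 3 met the mirrored rule. Sdhc and Sdhb, subunits of succinate dehydrogenase, had −log10 q values of 6.56 and 5.85. Atp5mpl had 5.83, the complex I assembly factor Ndufaf7 4.49 and Ndufa4 4.02. Of 79 cytosolic ribosomal protein genes 15 were members, which is 21.7% (12.7 to 33.3%) of those with a KO-labelled promoter peak, and 14 of these were CpG-rich. Rps6, the phosphorylated protein of the small subunit, had a fold enrichment of 3.72 (−log10 q 7.24) at chr4:86856921-86857645, with the nearest WT-labelled peak only 3167 bp away. Rps20 had 4.02, Rpl18 3.30, Rps15a 3.08 and Rplp1 3.03. The mitochondrial ribosome counted 10 of 78 genes (12.8%, 6.32 to 22.3%), with Mrps7 at 4.27, and the proteasome 6 of 49 (12.2%, 4.63 to 24.8%), with Psmd8 at 7.77.

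The next lists hold genes of general cell functions. Over all tested genes 51.1% were open in both lists, and members were 18.2% of those with a KO-labelled promoter peak. Of 140 chromatin regulators 10 were members (7.14%, 3.48 to 12.7%) and 119 were open in both lists, so members were 7.75% (3.78 to 13.8%) of those with a KO-labelled promoter peak. Smarcd1, a BAF complex subunit, had a −log10 q of 6.43, the heterochromatin protein gene Cbx1 4.49, and Cbx2, a chromodomain subunit of Polycomb repressive complex 1, 4.18 at chr11:119023423-119023749. Phf14 had 4.02 and Arid5a 1.93. Of 139 cell cycle genes 13 were members (9.35%, 5.07 to 15.5%) and 115 were open in both lists. Cdkn2aipnl and Cdk5rap3, which are in this list by their symbols, had 7.09 and 6.69, and Cdk8, the Mediator kinase, had 4.08. Of 359 ubiquitin ligases and proteases 31 were members (11.1% of those with a KO-labelled promoter peak, 7.68 to 15.4%), with Fbxo7 at 7.12 and the divergent pair Fbxo2 and Fbxo44 at 6.17. Protein kinases and phosphatases counted 23 of 253 (9.09%, 5.85 to 13.3%), with Prkg2 at 5.76 and Camkk1 at 5.53, and translation factors and tRNA synthetases 9 of 102 (8.82%, 4.11 to 16.1%).

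The lists of DNA polymerases and repair (9 of 87), splicing and RNA helicases (15 of 128), vesicle traffic (24 of 215), small GTPase regulators (25 of 182), coiled-coil genes (15 of 136), transmembrane TMEM genes (32 of 235), and kinesins, myosins and tubulins (11 of 94) lay between 10.3% and 13.7%. Apart from genes named above, their strongest members were Msh5 (−log10 q 4.22), which acts in meiotic recombination, Dhx9 (5.56), an RNA helicase, Stx17 (7.69), the syntaxin of autophagosomes, Arhgef19 (6.77), a guanine nucleotide exchange factor, Tmem30a (5.49), a subunit of phospholipid flippases, and the tubulin gene Tuba1a (7.12). The mitotic kinesin gene Kif11 had 6.65. Cilia and axoneme genes counted 28 of 176 (15.9%, 10.8 to 22.2%), 15 of them CpG-rich. Dnah9, an outer dynein arm heavy chain, had a −log10 q of 6.56 at chr11:66167750-66168317, the centriole protein gene Cep120 had 6.42, Cfap299 5.49 and the radial spoke gene Rsph3b 4.98. Apoptosis genes counted 3 of 44, Birc5 (1.71), Bak1 (1.47) and Trp53tg5 (0.844), and chloride channels and bestrophins 4 of 28, led by Best2 with 3.73.

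Several lists hold genes known mainly from other tissues. Of 1128 olfactory receptor genes 45 were members (3.99%, 2.92 to 5.30%), 21 were open in both lists and 27 met the mirrored rule, and none of the 45 had a CpG-rich promoter. Members were thus 68.2% (55.6 to 79.1%) of the 66 with a KO-labelled promoter peak, whose median −log10 q was 1.35. Olfr557 had the highest −log10 q, 4.49 at chr7:102698938-102699234, a region whose summit lay in the coding exon, and Olfr527 had 3.56. Vomeronasal, taste and trace amine receptors counted 7 of 380 (1.84%, 0.744 to 3.76%), with Tas2r138 at 2.71. Keratins and cornified envelope genes counted 10 of 146, of which none was CpG-rich, while 11 met the mirrored rule, and antimicrobial and secreted epithelial proteins 12 of 114. Testis and gamete genes counted 17 of 102 (16.7%, 10.0 to 25.3%), with Spaca1 and Tex9 at 3.13 each. Cytokines, chemokines and their receptors counted 26 of 202 (12.9%, 8.58 to 18.3%), with the shared IL-6 receptor subunit gene Il6st at 6.81, Il5ra at 4.02 and Il15 at 3.13, and immune surface receptors 28 of 222 (12.6%, 8.55 to 17.7%), with Clec4g at 3.44 and Cd80 at 3.17. That list was made by symbol too and counts Cd3eap, a subunit of RNA polymerase I, and Cd2bp2, a splicing protein chosen after its value was seen. The proteases and their inhibitors counted 20 of 223 (8.97%, 5.57 to 13.5%), with Tmprss5 at 3.56 and the lysosomal cathepsin genes Ctsf at 3.22 and Ctsd at 2.64. Of the 1767 genes with predicted or clone names 170 were members (9.62%, 8.29 to 11.1%).

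Of 209 drug-metabolising enzymes 21 were members (10.0%, 6.33 to 14.9%). Cyp2r1, the vitamin D 25-hydroxylase, had a −log10 q of 6.56, the glutathione transferase gene Gstp1 5.49 and Cyp24a1, which breaks down active vitamin D, 4.37. ABC transporters and ATPases counted 19 of 128 (14.8%, 9.18 to 22.2%), with Abca15 at 4.98. Cadherins and protocadherins counted 6 of 95 (6.32%, 2.35 to 13.2%), with Cdh22 at 2.43 and Cdh8 at 2.33. Major histocompatibility genes counted 5 of 34 (14.7%, 4.95 to 31.1%), with the antigen-loading gene H2-DMb2 at 3.38.

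Genes named by the study counted 7 members of 37 (18.9%, 7.96 to 35.2%), against 11.3% of all tested genes. Of the 37, 20 were open in both lists and 5 met the mirrored rule, which 3.53% of all tested genes met. Many of the 37 were named from its RNA-seq or H3K27me3 data, which come from other libraries of the same genotypes, and not for the ATAC-seq lists. Others were picked from these ATAC-seq libraries and are not independent evidence of a direction. Trank1 had a region at chr9:111312453-111312778 with a fold enrichment of 3.10 (−log10 q 4.02). Gria4 had 3.56 at chr9:4795444-4795875, Hcn4 3.16 at chr9:58823268-58823530 and Flt3, a receptor of blood progenitors, 3.13 at chr5:147399871-147400719. Cacng5, an auxiliary subunit of AMPA receptors, had 1.08 and Raet1e, an NKG2D ligand, 0.633. Cdkn2a, a locus that *Bmi1* is known to repress, was a member through a wide peak only, at chr4:89294189-89295593 with a fold enrichment of 2.43 (−log10 q 1.65), and the nearest WT-labelled peak was 7022 bp away. Cdkn2b and Cdkn2c, which also encode CDK inhibitors, were open in both lists. Nefl, Calb2, Cnpy1, Sfmbt2 and Tbx15 met the mirrored rule. The study lists all 5 among the top genes with raised RNA in the mutant, so their promoter calls run against the RNA under GEO's labels. The members Trank1, Gria4, Hcn4, Flt3, Cacng5 and Raet1e are on the same list.

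Markers of the organ of Corti are given beside all tested genes, of which 51.1% (50.4 to 51.8%) were open in both lists. Of 15 supporting cell markers 12 were open in both, among them Sox2, Prox1, Jag1 and Hey2, and none was a member. Lgr5 had the highest fold enrichment of this list in either library, 6.75 in the KO-labelled and 8.33 in the WT-labelled list. Of 15 hair cell markers 8 were open in both, among them Myo7a, Pou4f3 and Atoh1, 3 met the mirrored rule (Pvalb, Lhx3 and Barhl1), Tmc1 and Ocm were in none of these sets, and 2 were members. Strc, which encodes stereocilin of the hair bundle, had a fold enrichment of 2.63 (−log10 q 3.13), and Otof, the calcium sensor of the hair cell synapse, 1.99 and 0.844. Of 39 genes of hearing loss 6 were members (15.4%, 5.86 to 30.5%) and 22 were open in both lists. Besides Strc and Otof these were Ush1g, a scaffold of the Usher complex (−log10 q 4.96 at chr11:115320932-115321254), Slc26a5, the motor protein prestin of outer hair cells (3.56), Tecta, a protein of the tectorial membrane (1.61), and Pcdh15, a component of tip links (1.07).

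Markers of other cell types were present too. Of 14 tested glia markers 8 had a promoter peak in the KO-labelled list and 3 in the WT-labelled list. Gfap (−log10 q 0.476) and Mag (0.453) were members with weak peaks. The defining glia marker Sox10 had no promoter peak in either list. Of 14 tested neuron markers 10 had a promoter peak in the KO-labelled and 8 in the WT-labelled list, with Map2 the strongest in each (3.98 and 3.96), and Snap25 (−log10 q 3.13) and Nefm (2.33) were members. In mesenchyme 7 of 14 had one in each list, Tbx18 and Fbln1 were members, and Col1a1 and Col1a2 met the mirrored rule. In the blood and macrophage list 2 of 15 had a KO-labelled and 5 a WT-labelled promoter peak, Fcgr3 was the strongest in each (4.16 and 3.75), C1qa was a member with a −log10 q of 0.869, 4 met the mirrored rule (Csf1r, Aif1, Cx3cr1 and Spi1), and Ptprc, Hba-a1 and Hbb-bs had none in either list. In endothelium the counts were 8 and 9 of 15, with Flt1 (2.81) and Erg (2.87) the strongest, and no member. Whether the 2 pools differed in cell composition, and whether that moved the lists, was not tested.

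Sequence was not used to choose the members. A CpG-rich promoter (CpG observed over expected of at least 0.6 and G+C of at least 50% over 500 bp to each side of the TSS) was found in 1122 of 2358 members (47.6%, 45.6 to 49.6%). This compares with 71.3% (70.4 to 72.1%) of genes open in both lists, 169 of 734 genes of the mirrored set (23.0%) and 10.8% (10.1 to 11.5%) of the remaining genes. Over all tested genes it was 9633 of 20807, a share that lies within the interval of the members. The median CpG ratio was 0.592 in members, 0.736 in genes open in both lists and 0.332 in the mirrored set, and the median G+C content 56.0%, 60.5% and 53.5%. Members thus lay between the set open in both lists and the mirrored set. Within bands of peak strength members stayed below the genes open in both lists up to a −log10 q of 5, with 31.3% (27.4 to 35.4%) against 40.5% (37.3 to 43.8%) below 1.3, 44.1% (41.3 to 47.0%) against 56.5% (54.8 to 58.2%) from 1.3 to 3, and 62.3% (57.7 to 66.8%) against 78.6% (77.1 to 80.1%) from 3 to 5. From 5 to 10 the intervals met, at 81.1% (74.3 to 86.7%) and 87.5% (86.1 to 88.7%). At 10 or more, all 10 members (69.2 to 100%) and 88.3% (86.1 to 90.3%) of the genes open in both lists were CpG-rich, so the order turned there, on 10 genes. Soft-masked repeats covered a median of 3.02% of a member region and at least 50% of the bases in 46 regions (1.67%, 1.23 to 2.23%), near the 1.52% (1.32 to 1.73%) of regions open in both lists.

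Short motifs were searched on both strands in 200 bp around each summit, and none of the 12 contains another. GGGCGG, the GC box of Sp factors, was in 836 of 2747 member regions (30.4%, 28.7 to 32.2%), in 39.1% (38.3 to 39.9%) of regions open in both lists, in 19.4% (16.7 to 22.2%) of mirrored regions and in 40.4% of all tested promoters around the TSS. At CpG-rich promoters alone it was in 46.7% (43.8 to 49.5%) of member regions and 54.8% (53.7 to 55.9%) of those open in both lists, and at the other promoters in 17.3% (15.4 to 19.3%) and 17.2% (16.3 to 18.3%). CCAAT, bound by NF-Y, was in 549 of 2747 member regions (interval 18.5 to 21.5%), 21.6% (21.0 to 22.4%) of those open in both and 25.4% of all promoters. CCGGAAG of ETS factors was in 6.15% (5.28 to 7.12%), against 6.29% and 9.06%. At CpG-rich promoters alone CCAAT was in 19.4% (17.2 to 21.7%) of member regions and 22.9% (22.0 to 23.9%) of those open in both. There CCGGAAG was in 10.6% (8.92 to 12.4%) and 8.79% (8.18 to 9.43%). At the other promoters CCAAT was in 20.5% and 19.9%, and CCGGAAG in 2.57% and 2.80%. CAGCTG, an E-box, was in 13.7%, against 12.4% and 12.6%. CACGTG was in 4.48% (3.74 to 5.32%), against 5.45% and 5.18%, and CATTGT, a core of Sox sites, in 4.95% (4.17 to 5.83%), against 4.95% and 5.79%. AAGATGG, a core of YY1 sites, was in 3.60% against 3.67% and 5.20%, AGATAA of GATA factors in 3.46% against 2.75% and 4.77%, and TGANTCA of AP-1 in 3.17% against 3.36% and 3.79%. TATAAA was in 2.69% (2.12 to 3.37%) of member regions, 2.27% of those open in both and 7.60% of all promoters. The NRF1-type motif GCATGCGC (1.53%, against 1.73% and 2.23%) and the CRE TGACGTCA (0.983%, against 1.04% and 1.66%) were rare.

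The motifs can be seen in the strongest regions. The following windows around the summit are printed from GRCm38, 5′ to 3′ on the plus strand, with every match to a searched motif in capitals on either strand. They are chr3:94413080-94413229 upstream of Tdrkh, chr8:34154455-34154604 at Saraf, chr1:179546270-179546399 between Tfb2m and Cnst, chr2:105017051-105017120 between Eif3m and Ccdc73, chr15:85735309-85735458 at Ppara and chr7:90426334-90426483 at Ccdc89. The window at Tdrkh was shown for its 4 CCAAT boxes, each on the minus strand as ATTGG, beside a GC box. Saraf was shown for a CRE next to a CCAAT box and 3 GC boxes, Tfb2m and Ppara for GC boxes, and Eif3m for an ETS motif beside 2 GC boxes. Ccdc89 was shown as a strong region outside a CpG-rich promoter, with 3 CCAAT boxes and 5 CpGs in 150 bp. A match is a description of the letters and not a bound site.
Tdrkh: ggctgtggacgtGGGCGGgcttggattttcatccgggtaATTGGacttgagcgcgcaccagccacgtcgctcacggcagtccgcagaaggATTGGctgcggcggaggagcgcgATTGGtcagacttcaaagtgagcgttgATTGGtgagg
Saraf: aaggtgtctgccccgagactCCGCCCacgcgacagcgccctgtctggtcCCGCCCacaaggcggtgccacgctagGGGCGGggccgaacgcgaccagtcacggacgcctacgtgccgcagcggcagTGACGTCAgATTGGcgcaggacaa
Tfb2m and Cnst: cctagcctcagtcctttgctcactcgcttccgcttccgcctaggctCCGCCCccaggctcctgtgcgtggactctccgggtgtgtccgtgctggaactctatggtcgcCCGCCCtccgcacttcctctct
Eif3m and Ccdc73: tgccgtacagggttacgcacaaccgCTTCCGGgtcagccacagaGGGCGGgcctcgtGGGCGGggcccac
Ppara: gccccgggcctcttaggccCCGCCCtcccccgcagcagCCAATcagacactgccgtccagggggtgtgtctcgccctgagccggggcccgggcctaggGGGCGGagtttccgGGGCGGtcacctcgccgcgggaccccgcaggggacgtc
Ccdc89: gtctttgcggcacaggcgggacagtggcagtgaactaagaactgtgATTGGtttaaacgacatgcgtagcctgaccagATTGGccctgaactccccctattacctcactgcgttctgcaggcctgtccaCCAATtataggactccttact

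The strongest regions of some gene lists are printed in the same way. They are chr13:23746470-23746619 between the histone genes Hist1h3c and Hist1h2bb, chr9:22225804-22225953 at Zfp809 and chr6:136172188-136172337 at Grin2b. The histone window held 2 CCAAT boxes and 3 CpGs, with a G+C content of 40.7%. Zfp809 had 1 GC box and 14 CpGs. At Grin2b the NRF1-type motif stood at the end of a run of alternating CA and CG.
Hist1h3c and Hist1h2bb: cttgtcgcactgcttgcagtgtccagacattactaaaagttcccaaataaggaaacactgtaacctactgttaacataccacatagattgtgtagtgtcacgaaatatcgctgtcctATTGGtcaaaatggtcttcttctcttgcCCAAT
Zfp809: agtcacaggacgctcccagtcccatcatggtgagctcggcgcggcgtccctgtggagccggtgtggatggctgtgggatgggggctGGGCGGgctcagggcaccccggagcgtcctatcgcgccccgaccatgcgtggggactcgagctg
Grin2b: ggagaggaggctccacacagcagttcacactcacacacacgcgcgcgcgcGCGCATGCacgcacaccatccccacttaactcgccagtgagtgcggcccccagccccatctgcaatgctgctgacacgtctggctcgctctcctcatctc

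Position in the genome was described next. The centre of a member region lay a median of 192 bp from the nearest TSS of a member, against 173 bp for regions open in both lists and 308 bp for mirrored regions. It lay within 100 bp in 33.8% (32.0 to 35.6%) of member regions, against 36.0% (35.2 to 36.8%) and 21.6% (18.8 to 24.6%). The centre was upstream of the TSS in 41.1% (39.2 to 43.0%). The summit fell in an annotated UTR in 21.3% (19.8 to 22.9%), in a coding exon in 17.0% (15.6 to 18.5%), in a non-coding exon in 6.66%, in an intron in 934 of 2747 (interval 32.2 to 35.8%) and between genes in 21.0% (19.5 to 22.5%). Coding exons held 13.5% (12.9 to 14.1%) of the summits open in both lists. Another gene started within 1 kb on the other strand for 478 members (20.3%, 18.7 to 22.0%), for 28.1% (27.3 to 29.0%) of genes open in both lists and for 12.8% (10.5 to 15.4%) of the mirrored set. Among the remaining genes it was 7.16% (6.57 to 7.78%). A region was shared by 2 members in 127 cases, by 3 in 7 and by 4 in 1, and in 113 of these 135 the members lay on both strands. Alg3, a mannosyltransferase of N-glycosylation, shared chr16:20611451-20611884 (−log10 q 3.77) with Eef1akmt4 and the readthrough gene Gm49333, and Bysl and Med20 shared chr17:47611429-47611761 (2.79) with Gm20517.

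Along the chromosomes 1558 members stood alone between other tested genes, and 800 were next to at least 1 more member, in 361 rows. Some of these rows hold members that share a region, and how many rows position alone would give was not tested. There were 11 rows of 4 and 1 row of 5. The genes of the row of 4 at chr19:44203269-44407879 were Scd3, Scd2, Scd4 and Scd1, which all encode stearoyl-CoA desaturases, and each was a member through its own peak. The share of members among tested genes ran from 8.87% (6.78 to 11.3%) on chromosome 12 to 13.9% (11.5 to 16.7%) on chromosome 19, and on chromosome 13, with its histone and Zfp clusters, it was 13.6% (11.3 to 16.1%). The median member was 16107 bp long and had 3 transcripts, against 27598 bp and 5 transcripts for genes open in both lists and 11600 bp and 3 transcripts for the mirrored set. The rule asks for no peak of the other list near any TSS, so a gene with more TSSs could be excluded at more places. The number of transcripts is thus not independent of the choice.

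Although their promoters had no WT-labelled peak by the rule, many members had peaks elsewhere in the gene, and so did genes of the other sets. More than 3 kb from any TSS, 968 members (41.1%, 39.1 to 43.1%) had a WT-labelled peak in the gene body and 1046 (44.4%, 42.3 to 46.4%) a KO-labelled one. In genes open in both lists they were 5314 of 10632 (interval 49.0 to 50.9%) and 5731 (53.9%, 53.0 to 54.9%). In the mirrored set they were 35.6% (32.1 to 39.1%) and 41.3% (37.7 to 44.9%). Among the remaining genes they were 22.2% (21.2 to 23.2%) and 25.2% (24.2 to 26.3%). Body peaks were thus not particular to members. Grik4 had 32 WT-labelled and 27 KO-labelled peaks in its body, Grin2b 8 and 26, Arl15 18 and 21, and Pcdh15 10 and 16. The nearest WT-labelled peak was a median of 8433 bp from a TSS of a member. It lay between 3 and 5 kb for 561 members (23.8%, 22.1 to 25.6%), between 5 and 10 kb for 797 (33.8%, 31.9 to 35.8%), between 10 and 30 kb for 698 (29.6%, 27.8 to 31.5%), between 30 and 100 kb for 244 (10.3%, 9.15 to 11.7%) and beyond 100 kb for 58 (2.46%, 1.87 to 3.17%). Grm3, with 159861 bp, Itga4, with 161345 bp, and Serpinb9g, with 277843 bp, were among the last. In the mirrored set the nearest KO-labelled peak was a median of 6580 bp away.

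At the edges of the rule the values were close. The members with the most distant KO-labelled centre were Ttc9b (1000 bp), Serpina5 (996.5 bp) and Cdk18 (996 bp), and the nearest genes outside were Vps51 (1002 bp), Mesp2 (1003 bp) and Prim1 (1004 bp). The members with the nearest WT-labelled base were Odf3l1 (3001 bp), Mrs2 (3004 bp) and Lgals7 (3007 bp), while Man2a2 (3000 bp), Tmed9 (2999 bp) and Npy4r (2994 bp) were outside. The widest regions belonged to Klf16 (991 bp), Ikzf4 (988 bp) and Inpp5d (984 bp), and the narrowest peaks left out of the regions to Slk (1005 bp), Shisa3 and Iqcf1 (1011 bp each). The lowest −log10 p of a region was 2.06, at 2200002J24Rik, Kif13b and Lipk.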

How the data were processed

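The data were 1 ATAC-seq peak list labelled WT and 1 labelled *Bmi1* KO, from organs of Corti at postnatal day 2, each from 1 library of 10 pooled mice. Grouping followed the genotype that GEO gives. The submitters' processing notes name FastQC, BWA, MACS2 and HOMER and the build mm10, which has the coordinates of GRCm38, without versions. Peaks were called in each library. MACS2 options, duplicate removal and the shift of Tn5 cut sites are not given in the sources used here. The deposited fold enrichment is a ratio, taken at the summit, of pileup plus 1 to local background plus 1. The deposited −log10 p and −log10 q come from a Poisson model with that background, the q adjusted within the library. The score that the authors deposited was not used. The other deposited columns give positions, the summit among them.

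No interval occurred more than once in a list. Genes, transcripts and exons came from GENCODE vM21, and sequence from the RefSeq FASTA of GRCm38.p6. The TSS used for a promoter was the one nearest to the centre of the gene's strongest KO-labelled promoter peak (WT-labelled in the mirrored set), or, for the remaining genes, to the 5′ end of the gene. Pileup and background were solved from the fold enrichment and −log10 p, and the steps were tested on simulated data. Named genes are the 20 members with the highest −log10 q of a region, up to 5 per gene list by −log10 q, members among 7 lists of markers or the genes the study names, the 3 values on each side of a threshold, and members in the longest rows or in regions shared by several genes. Members and lists were chosen with earlier results of these data known. Shares have exact (Clopper-Pearson) 95% intervals. With 1 library per genotype no test was run. Alternatives changed the peak threshold, the number of peaks, the depth, the distances and the transcripts. The tools were scipy 1.17.1, pandas 2.3.3 and numpy 2.4.6 under Python 3.11.15.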

Additional observations from a re-analysis of the deposited data

How the results depend on the processing

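The count of 2358 member genes stayed within a factor of 1.5 under 8 of 10 alternatives, between 1821 and 3525, and the 2747 member regions between 1948 and 4111. A −log10 q of at least 5 in the KO-labelled list left 179 genes and 145 regions, and 10 kb free of WT-labelled peaks left 1000 genes and 1112 regions; both are stricter by construction. When both lists were held to −log10 q 1.3 or more, 1821 of the 3525 genes were among the 2358. Members outnumbered the mirrored set by a ratio of 3.21. The ratio was 4.66 with −log10 q of at least 1.3 in the list that opens the promoter, 59.7 at 5 (179 against 3 genes), 4.71 with 1.3 in both lists and 2.05 when both lists were brought to equal numbers of peaks. Under the same settings the share of CpG-rich members was 52.4%, 82.1%, 57.6% and 50.6%, against 47.6%. Scaling the KO-labelled depth changed neither beyond its interval (3.20 and 47.6%). That step kept 2352 of the 2358 member genes, so it could change little, and whether depth moved these results was not tested.

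Of the 51 gene lists, the share of members in the list kept within its interval for 49 with −log10 q of at least 1.3 in the KO-labelled list, 45 with 1.3 in both lists, 12 at 5, and 51 with equal numbers of peaks or scaled depth. At 5 no olfactory receptor, ligand-gated channel, potassium channel or basic helix-loop-helix gene was left. The Wnt, Notch and hedgehog list fell from 10 members to 3 with 1.3 in the KO-labelled list and to 7 with 1.3 in both lists. With 1.3 in both lists the histone list went from 21 to 17 members and the Zfp list from 80 to 90, while all members went from 2358 to 3525. All 12 motifs were rarer in 50 bp to each side, a shorter window by construction. Absence from the WT-labelled list means not called at its depth: at the commonest background of 6.32 a pileup below 13 fragments was not called, and elsewhere the limit differs. With 1 pool per genotype, genotype, animals and dissection cannot be told apart. Apart from what construction fixes, the cause of these changes was not tested.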
